A study of Mus musculus with 9 samples.

Results

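The messenger RNAs of 10 neuropeptide precursors, Nts, Sst, Cartpt, Tac1, Gal, Adcyap1, Uts2, Calcb, Penk and Npy, were followed across 3 pools of mouse motor neurons. A gene was included through every probe set that the platform annotation assigned to it alone. This gave 12 probe sets for the 10 genes, out of 18193 genes and 45037 probe sets on the array. The cells were motor neurons from cresyl violet stained sections of male wild-type C57BL/6J mice at postnatal day 7, cut out by laser, with about 200 cells of each pool taken from each of 3 untreated animals. One pool came from lumbar segment 5 (L5), another from the dorsolateral nucleus at lumbar level 6 (DL), and the last from the oculomotor nucleus of the midbrain (OMN). RNA of each pool and animal was amplified and hybridised to 1 Affymetrix Mouse Genome 430 2.0 array, so each pool had 3 arrays. The series title places the pools in the setting of amyotrophic lateral sclerosis, in which limb motor neurons are lost while eye and pelvic sphincter motor neurons are relatively spared. Captured tissue of this kind is bulk RNA, in which fewer cells of a type and less RNA per cell cannot be told apart.

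Neuropeptides are made as precursor proteins, which are cut by proprotein convertases in the secretory pathway, packed into dense core vesicles and released to act on G protein-coupled receptors. Motor neurons release acetylcholine as their fast transmitter, and many also carry peptides, of which calcitonin gene-related peptide (CGRP) is the best known. Peptides in motor neurons act at the neuromuscular junction and within the motor nuclei, and their content differs between motor nuclei and changes after axon injury.

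All arrays were scaled to the same trimmed mean, and their median intensities were between 32.0 and 34.3 in L5, between 26.4 and 29.7 in DL and between 33.6 and 35.5 in OMN. Every DL median thus lay below every L5 and OMN median. RNA quality, read as the Gapdh signal at the 3′ end over that at the 5′ end, stood at 3.27, 2.44 and 3.75 for DL arrays 1, 2 and 3, and at 2.33 to 2.67 for the other 6 arrays. The highest signal of 27 control probe sets for bacterial transcripts, 18.3, was taken as the noise level. Among 10 measured motor neuron markers, Slc18a3, the vesicular acetylcholine transporter, was at 2828 ± 666 in L5, 1662 ± 891 in DL and 2478 ± 418 in OMN (SD, n = 3 arrays in each pool, here and below). The choline transporter Slc5a7 was at 4074 ± 811, 3230 ± 323 and 4107 ± 143 in L5, DL and OMN. Chat, the defining enzyme of cholinergic neurons, had its probe set near noise in every pool, at 6.10 ± 6.01 in L5, 15.6 ± 6.76 in DL and 22.3 ± 2.02 in OMN. In L5 against OMN 2 of these markers were higher at an adjusted p under 0.05 in limma, Mnx1 and Prph, and 1 lower, Isl1. In L5 against DL 1 was lower, Isl1, and in DL against OMN 2 were higher, Mnx1 and Isl2. Of all genes 2.17%, 2.55% and 3.02% passed in these comparisons. Isl1 was at 598.2 ± 134, 2717 ± 414 and 2129 ± 45.7 in L5, DL and OMN. In the same order Mnx1 was at 127.8 ± 40.9, 94.5 ± 25.9 and 1.77 ± 1.10, Prph at 10257 ± 132, 8626 ± 951 and 4844 ± 301, and Isl2 at 85.6 ± 51.8, 96.2 ± 7.82 and 12.6 ± 8.05.

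The 250 bases before the start site are printed for 4 members that stand for the patterns described next: Nts, high in L5, Sst, high in both spinal pools, Cartpt, high in OMN, and Tac1, high in DL. RefSeq sequences of GRCm38.p6 covered 8 of the 10 genes, all but Calcb and Penk. The sequences read 5′ to 3′ on the strand of the gene, and capitals mark TGACG on either strand, the core of the cyclic AMP response element TGACGTCA. Nts lies at chr10:102490419-102490668 on the minus strand, Sst at chr16:23890845-23891094 on the minus strand, Cartpt at chr13:99900684-99900933 on the minus strand and Tac1 at chr6:7554811-7555060 on the plus strand.
Nts: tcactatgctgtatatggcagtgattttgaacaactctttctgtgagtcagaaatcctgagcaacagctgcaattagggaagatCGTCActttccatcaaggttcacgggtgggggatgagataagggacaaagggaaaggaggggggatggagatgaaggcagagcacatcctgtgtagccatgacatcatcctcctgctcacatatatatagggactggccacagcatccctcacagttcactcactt
Sst: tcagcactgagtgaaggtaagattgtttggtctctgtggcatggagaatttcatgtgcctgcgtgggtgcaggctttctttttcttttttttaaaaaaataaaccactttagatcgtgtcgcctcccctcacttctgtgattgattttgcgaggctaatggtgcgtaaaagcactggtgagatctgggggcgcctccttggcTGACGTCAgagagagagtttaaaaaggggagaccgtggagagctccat
Cartpt: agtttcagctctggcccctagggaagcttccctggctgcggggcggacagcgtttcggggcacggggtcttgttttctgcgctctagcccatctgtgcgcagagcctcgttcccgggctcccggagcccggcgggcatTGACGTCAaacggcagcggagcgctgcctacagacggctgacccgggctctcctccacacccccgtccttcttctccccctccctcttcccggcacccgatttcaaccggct
Tac1: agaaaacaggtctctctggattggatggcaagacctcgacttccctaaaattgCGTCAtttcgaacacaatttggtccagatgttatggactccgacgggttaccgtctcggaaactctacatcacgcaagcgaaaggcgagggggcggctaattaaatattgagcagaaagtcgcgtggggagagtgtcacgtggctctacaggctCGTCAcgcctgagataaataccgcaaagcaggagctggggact
The whole element TGACGTCA was present in Sst, where its first base lay 48 bases before the start, and in Cartpt, 112 bases before it. The motif was found in 588 of 32851 RefSeq windows that ran from 250 bases before to 50 after a start, which is 1.79% of them. The core TGACG, searched on both strands and counted also inside the whole element, was present in Nts, Sst, Cartpt, Tac1, Gal and Adcyap1, 6 of the 8 genes, and in 20.8% of all windows. In Gal the match lay after the start. A gene was counted if any of its windows held the motif, whereas the percentages are of single windows. The AP-1 motif TGANTCA, searched on both strands, was present in Nts alone among the 8 and in 7.81% of all windows, and TATAAA in Adcyap1 and Uts2 and in 13.6% of all windows.

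Each pool had a different combination of these genes. Nts was higher in L5 than in both other pools, Tac1 and Gal were higher in DL than in both others, and Cartpt and Adcyap1 were higher in OMN than in both others. Sst was higher in both spinal pools than in OMN, and Uts2 was higher in L5 and in OMN than in DL. In the comparison of L5 with OMN, 4 of the 10 members passed an adjusted p of 0.05 in limma, 2 higher and 2 lower in L5, where 2.17% of all genes passed (0.945% higher and 1.22% lower). In L5 against DL, 5 members passed, 2 higher and 3 lower in L5, where 2.55% of all genes passed (1.28% higher and 1.28% lower). In DL against OMN, 6 members passed, 3 higher and 3 lower in DL, where 3.02% of all genes passed (1.37% higher and 1.65% lower). The members had been chosen with earlier results of these arrays known, so the distance from these shares is a description. The median absolute log2 difference of the 10 members was 1.05, 1.64 and 2.06 in the 3 comparisons in this order, against 0.29, 0.30 and 0.27 over all genes. With arrays centred on their medians the genes called were 169 higher and 406 lower in L5 against DL, in place of 232 and 232, and 384 higher and 195 lower in DL against OMN, in place of 249 and 301. The 3 comparisons share arrays in pairs and are not independent of one another.

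**Figure D1:**
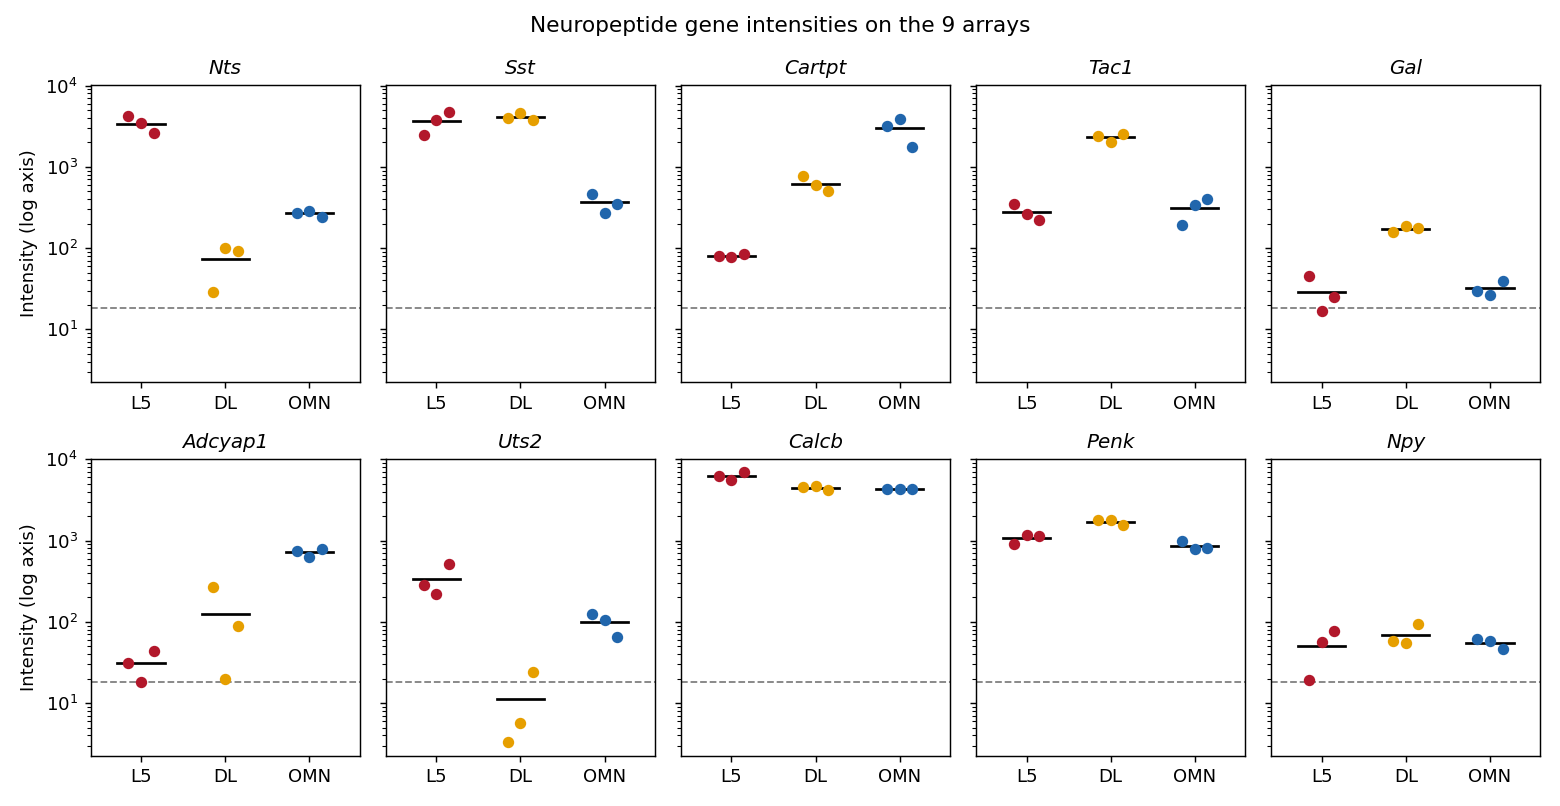
Intensity of each of the 10 genes on the 9 arrays (log axis), with 1 point per array, a black line at the mean of each pool and a dashed line at the noise level of 18.3. Nts is high on the 3 L5 arrays, Tac1 and Gal on the 3 DL arrays, Cartpt and Adcyap1 on the 3 OMN arrays, and Sst on all 6 spinal arrays.

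The arrays of the 2 pools compared did not overlap for 6 of the 10 members in L5 against OMN, where 27.4% of all genes had no overlap. The same was true of 7 members in L5 against DL (23.5% of all genes) and of 8 in DL against OMN (21.1% of all genes). Differences below are in log2(intensity + 16), L5 minus OMN, L5 minus DL or DL minus OMN, with the standard error (SE) of the fit, and p-values are limma's, adjusted over all 18193 genes. Levels are intensities, and fold values are ratios of mean intensities unless stated otherwise.

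**Figure D2:**
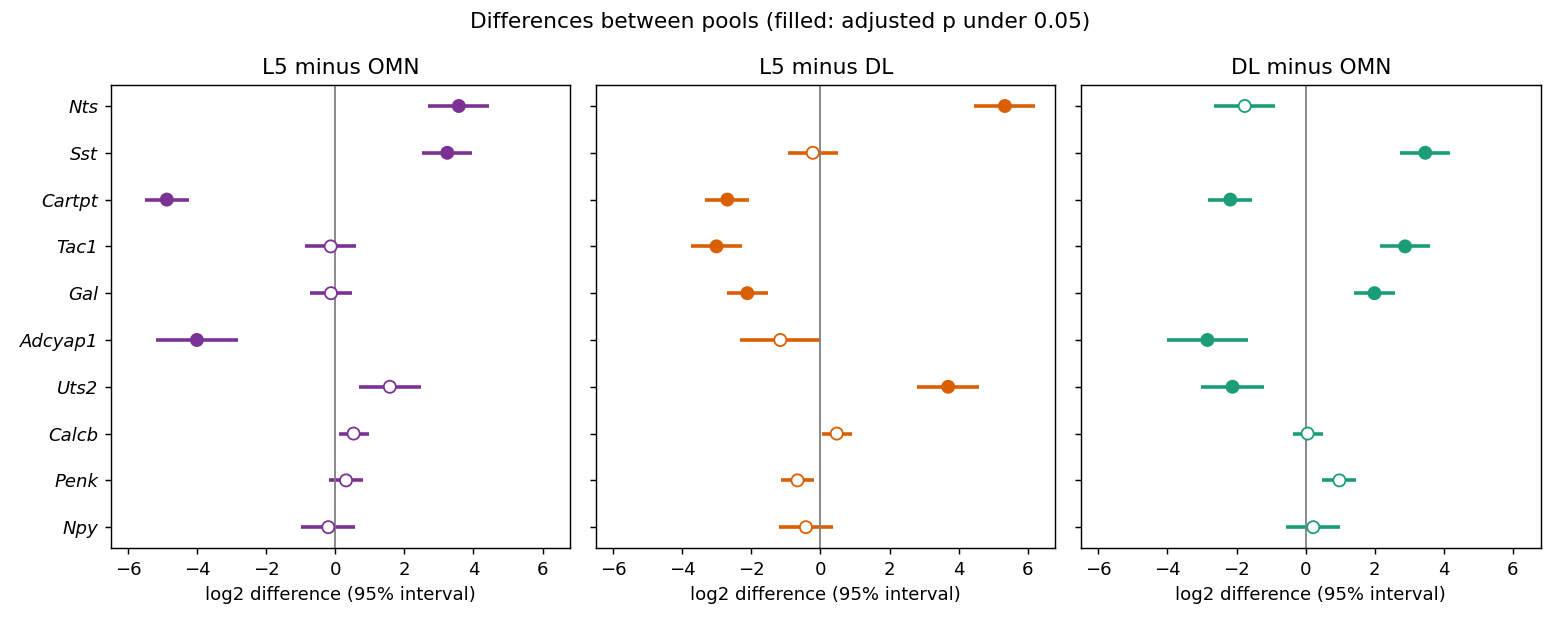
Log2 differences of the 10 genes in the 3 comparisons, as log2(intensity + 16), with 95% intervals from limma as bars and filled points where the adjusted p was under 0.05. Cartpt is filled in all 3 panels, and Calcb, Penk and Npy in none.

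Nts encodes the precursor of neurotensin, a peptide of the brain and gut that acts through Ntsr1 and Ntsr2. Its intensity was 4232, 3419 and 2587 on the L5 arrays, 29.1, 100.4 and 93.0 on the DL arrays and 270.9, 289.0 and 239.5 on the OMN arrays. The 3 L5 arrays lay above all others, and every DL array lay below every OMN array. L5 was 46.0-fold over DL (log2 difference 5.34 ± 0.38 SE, adjusted p = 0.00318) and 12.8-fold over OMN (3.58 ± 0.38, adjusted p = 0.00571). The difference between DL and OMN, -1.76 ± 0.38, did not pass the threshold (adjusted p = 0.0585, 95% interval -2.64 to -0.88). Without the replicate block it passed (adjusted p = 0.0263), as it did in 3 other settings. The call against OMN was lost without OMN array 2 (adjusted p = 0.0518) and with a pseudocount of 1 (adjusted p = 0.0562). The call against DL held on leaving out any 1 array, and was lost when DL arrays 1 and 3, those with the high Gapdh ratio, were left out together (4.93, adjusted p = 0.0624).

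Uts2 encodes urotensin II, a cyclic peptide found in motor neurons of several vertebrates. It stood at 282.2, 219.7 and 508.4 in L5, at 3.3, 5.7 and 24.3 in DL and at 124.5, 105.7 and 64.8 in OMN. In DL 1 of the 3 arrays exceeded the noise level, and in L5 and OMN all of them did. L5 was higher than DL (3.70 ± 0.39, adjusted p = 0.00746), by at least 15.7-fold as a ratio of geometric means with values under 18.3 raised to 18.3. This call was lost without L5 array 1 (3.76, adjusted p = 0.0556), with a pseudocount of 1 (adjusted p = 0.05635), after adding the Gapdh ratio to the model (adjusted p = 0.0557) and without DL arrays 1 and 3 together (adjusted p = 0.0898). DL was lower than OMN (-2.12 ± 0.39, adjusted p = 0.035), with OMN at least 4.71-fold over DL on the same basis. On leaving out single arrays the adjusted p of DL against OMN passed 0.05 for 8 of the 9, all but OMN array 3, with values of 0.0574 to 0.161, and it was 0.1675 without DL arrays 1 and 3. Another 6 settings ended the call (adjusted p = 0.05846 to 0.1456): pseudocounts of 1 and of 64, quantile normalization, array weights, the DL and OMN arrays fitted alone, and the Gapdh ratio in the model. L5 against OMN, 1.58 ± 0.39, missed the threshold (adjusted p = 0.106, 95% interval 0.67 to 2.49), although the arrays did not overlap.

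Sst encodes somatostatin, an inhibitory peptide known mainly from interneurons and endocrine cells. It was at 2473, 3727 and 4694 in L5, at 4025, 4568 and 3737 in DL and at 469.5, 272.4 and 353.5 in OMN. Every spinal array lay above every OMN array, and the arrays of L5 and DL overlapped. L5 was 9.95-fold over OMN (3.24 ± 0.31, adjusted p = 0.00375) and DL 11.3-fold over OMN (3.46 ± 0.31, adjusted p = 0.00239). Both calls held without any single array, and that of DL was lost without DL arrays 1 and 3 together (3.76, adjusted p = 0.0509). L5 minus DL was -0.22 ± 0.31, with a 95% interval of -0.94 to 0.50 and adjusted p = 0.763. Slc6a5, which takes up glycine in inhibitory neurons, was also higher in both spinal pools than in OMN, at 550.6 ± 90.2 in L5, 706.8 ± 248 in DL and 22.6 ± 14.7 in OMN. Of the same list of inhibitory markers, Gad1 and Gad2 were lower in L5 than in OMN (-1.78, adjusted p = 0.037, and -2.22, adjusted p = 0.00291). In DL minus OMN they were not called (0.11, adjusted p = 0.918, and 0.82, adjusted p = 0.0789). Slc32a1 of this list was at 963.0 ± 258 in L5, 1882 ± 324 in DL and 474.6 ± 127 in OMN. It was higher in DL than in OMN (adjusted p = 0.00612) and was not called in L5 against OMN (adjusted p = 0.0883). The part of inhibitory neurons in the Sst values was not tested.

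Tac1 encodes the precursor of substance P and neurokinin A, peptides of primary afferents and of neurons in the dorsal horn and brainstem. Its main probe set read 347.0, 263.3 and 219.3 in L5, 2408, 2033 and 2502 in DL and 195.0, 339.0 and 403.8 in OMN. The DL arrays lay above all others, and L5 and OMN overlapped. L5 was lower than DL (-3.01 ± 0.31, adjusted p = 0.00746), with DL 8.37-fold over L5, and DL was 7.40-fold over OMN (2.88 ± 0.31, adjusted p = 0.00485). The call of L5 against DL was lost without L5 array 2 (adjusted p = 0.058) and after adding the Gapdh ratio to the model (-2.72, adjusted p = 0.0587), and both DL calls were lost without DL arrays 1 and 3 together (adjusted p = 0.1055 against L5 and 0.1002 against OMN). L5 minus OMN was -0.13 ± 0.31 (adjusted p = 0.884, 95% interval -0.87 to 0.60). The other Tac1 probe set did not exceed the noise level on any array, with 6.1 to 16.1 on the spinal arrays and 2.8 to 13.3 on the OMN arrays. Averaging both probe sets left the calls in place and the differences smaller, at -1.35 for L5 minus DL (adjusted p = 0.0254) and 1.51 for DL minus OMN (adjusted p = 0.0135).

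Gal encodes galanin, which many neurons produce after axon injury. It was dim, at 45.1, 16.9 and 25.3 in L5, 159.7, 186.0 and 175.0 in DL and 29.6, 26.8 and 39.1 in OMN. In L5 2 of the 3 arrays exceeded the noise level. DL was 5.96-fold over L5 (L5 minus DL -2.12 ± 0.25, adjusted p = 0.0111) and 5.45-fold over OMN (1.99 ± 0.25, adjusted p = 0.00913). The call of L5 against DL was lost without L5 array 2 (-1.93, adjusted p = 0.0758) or L5 array 3 (-2.02, adjusted p = 0.0676). It was also lost with the L5 and DL arrays fitted alone (adjusted p = 0.082), after adding the Gapdh ratio to the model (adjusted p = 0.0603) and without DL arrays 1 and 3 together (adjusted p = 0.0897). The call of DL against OMN was lost without OMN array 1 (adjusted p = 0.0617), without OMN array 2 (adjusted p = 0.0598) and without DL arrays 1 and 3 together (adjusted p = 0.0691). With a pseudocount of 1 both calls were lost (adjusted p = 0.0589 for L5 against DL and 0.0519 for DL against OMN). L5 minus OMN was -0.12 ± 0.25 (adjusted p = 0.864, 95% interval -0.72 to 0.47).

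Markers of other neurons and of glia were read beside Tac1 and Gal, and only some of them were called higher in DL than in both other pools. Of the 8 inhibitory interneuron markers listed, 7 were measured, and their summed intensity was 1644 to 2286 in L5, 5040 to 5925 in DL and 1930 to 2727 in OMN, with Gbx1 at noise throughout. The GABA-synthesising enzymes Gad1 and Gad2 were both lower in L5 than in either other pool, Gad2 at 268.6 ± 18.4 in L5, 2340 ± 340 in DL and 1312 ± 120 in OMN. Slc32a1 and Slc6a5 were higher in DL than in OMN, and Slc6a5 was higher in L5 than in OMN. Of 7 excitatory interneuron markers 5 were measured, with sums of 509.3 to 542.5 in L5, 550.1 to 689.3 in DL and 1005 to 1277 in OMN. Among them Prrxl1, a homeobox factor of dorsal horn and sensory neurons, was at 30.7, 35.5 and 90.8 in L5, 382.7, 334.4 and 411.2 in DL and 1.7, 1.7 and 14.1 in OMN, and was called in all 3 comparisons. Slc17a6, the vesicular glutamate transporter, ran the other way, at 456.5 ± 59.8 in L5, 201.8 ± 73.8 in DL and 1124 ± 136 in OMN. Of 9 sensory neuron and Schwann cell markers 7 were measured, with sums of 1979 to 2322 in L5, 2110 to 3032 in DL and 231.5 to 339.6 in OMN. Scn11a and Pirt were lower in both L5 and OMN than in DL. Scn11a was at 19.9 ± 6.07 in L5, 608.9 ± 105 in DL and 26.4 ± 20.3 in OMN. In the same order Pirt was at 15.4 ± 10.4, 882.7 ± 404 and 35.9 ± 51.0. Pmp22, a myelin protein of Schwann cells, was higher in L5 than in both others and higher in DL than in OMN. At 2060 ± 176 in L5, 874.7 ± 183 in DL and 134.6 ± 37.1 in OMN, it made up most of the L5 sum. Scn10a, the defining sodium channel of nociceptors, was at noise on all 9 arrays. The summed intensity of 10 oligodendrocyte markers was 16049 to 17127 in L5, 22864 to 25026 in DL and 12666 to 14359 in OMN, with 3 markers lower in L5 than in DL, 3 higher in DL than in OMN and 0 called between L5 and OMN by limma (0 also at an unadjusted p under 0.05). Over all genes 2.17%, 2.55% and 3.02% were called in L5 against OMN, L5 against DL and DL against OMN. The part of the cells these lists mark in the DL values of Tac1 and Gal was not tested.

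Cartpt encodes the precursor of the CART peptides, known from hypothalamus, midbrain and autonomic neurons. It was at 78.9, 78.4 and 84.0 in L5, 762.1, 595.8 and 497.4 in DL and 3207, 3930 and 1778 in OMN, and the 3 pools did not overlap. L5 was lower than OMN by a log2 difference of -4.88 ± 0.27 (adjusted p = 0.000468), with OMN 36.9-fold over L5, and this call held in all 20 other settings and without DL arrays 1 and 3. L5 was lower than DL (-2.70 ± 0.27, adjusted p = 0.0064), with DL 7.69-fold over L5. DL was lower than OMN (-2.18 ± 0.27, adjusted p = 0.00827), with OMN 4.81-fold over DL. Cartpt was the only member called in all 3 comparisons. The call of L5 against DL was lost without L5 array 1 (adjusted p = 0.0543), without L5 array 2 (adjusted p = 0.0512), after adding the Gapdh ratio to the model (adjusted p = 0.0557) and without DL arrays 1 and 3 together (adjusted p = 0.0969). The call of DL against OMN was lost without OMN array 1 (adjusted p = 0.0558), with the DL and OMN arrays fitted alone (adjusted p = 0.0561) and without DL arrays 1 and 3 together (adjusted p = 0.0859).

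Adcyap1 encodes pituitary adenylate cyclase-activating polypeptide (PACAP), a peptide that acts on neurons through Adcyap1r1 and raises cyclic AMP. Its main probe set read 30.7, 18.4 and 43.4 in L5, 266.8, 19.7 and 90.0 in DL and 739.0, 631.9 and 794.9 in OMN. The OMN arrays lay above all others, and the L5 and DL arrays overlapped, with DL array 2 among the L5 values. These L5 values were dim, the lowest at 18.4 against a noise level of 18.3, so folds over L5 have a base near noise. L5 was lower than OMN (-4.01 ± 0.50, adjusted p = 0.0119), with OMN 23.4-fold over L5, and DL was lower than OMN (-2.84 ± 0.50, adjusted p = 0.0322), with OMN 5.75-fold over DL. Without DL array 1 this fold was 13.2 and the log2 difference -3.56. The first call was lost on leaving out any L5 array, OMN array 2 or OMN array 3 (adjusted p = 0.0665 to 0.0787). The call of DL against OMN was lost on leaving out any array but DL array 1 (adjusted p = 0.052 to 0.144) and with the DL and OMN arrays fitted alone (adjusted p = 0.1445). With a pseudocount of 1 both calls were lost (adjusted p = 0.0638 for L5 against OMN and 0.1141 for DL against OMN), and both held without DL arrays 1 and 3 together. L5 minus DL was -1.16 ± 0.50 (adjusted p = 0.271, 95% interval -2.34 to 0.02). The other Adcyap1 probe set read 15.2, 11.9 and 0.6 in L5, 1.2, 20.1 and 27.8 in DL and 64.3, 84.6 and 93.7 in OMN. On it OMN was at least 4.37-fold over L5, with all L5 arrays at noise, but no comparison passed the threshold over all probe sets (adjusted p = 0.0752 for L5 against OMN and 0.0915 for DL against OMN), where 1.03%, 1.37% and 1.92% of probe sets passed in L5 against OMN, L5 against DL and DL against OMN.

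The Edinger-Westphal nucleus, which borders the oculomotor nucleus, holds peptide neurons that make urocortin together with CART peptides. Of its 5 listed markers all were measured, and 0 were called by limma in any of the 3 comparisons (1, 2 and 2 at an unadjusted p under 0.05 in L5 against OMN, L5 against DL and DL against OMN), with summed intensities of 222.5 to 255.7 in L5, 336.1 to 435.6 in DL and 194.3 to 458.6 in OMN. Ucn, the defining urocortin gene, was at 4.50 ± 0.35 in L5, 20.2 ± 7.54 in DL and 18.3 ± 14.1 in OMN, at or near the noise level. Cck was at 143.6 ± 29.0 in L5, 244.6 ± 55.8 in DL and 162.2 ± 73.9 in OMN. Ghsr was at 8.10 ± 7.03 in L5, 24.6 ± 10.7 in DL and 117.8 ± 72.9 in OMN (adjusted p = 0.0706 for L5 against OMN). Of 6 catecholamine markers, 3 were lower in both spinal pools than in OMN, namely Ddc, Slc6a2 and Th, the last at 15.97 ± 6.28 in L5, 11.1 ± 8.22 in DL and 88.9 ± 21.6 in OMN, and 0 were called between L5 and DL by limma (0 also at an unadjusted p under 0.05). The list summed to 375.1 to 551.4 in L5, 330.4 to 1319 in DL and 927.1 to 1003 in OMN. Most of this sum was Slc18a2, at 366.8 ± 102 in L5, 722.9 ± 485 in DL and 669.1 ± 20.5 in OMN, with no call. Slc6a3, the dopamine transporter, was at noise on every array. Over all genes 2.17%, 2.55% and 3.02% were called in L5 against OMN, L5 against DL and DL against OMN. The part of Edinger-Westphal and catecholamine neurons in the OMN values of Cartpt and Adcyap1 was not tested.

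**Figure D3:**
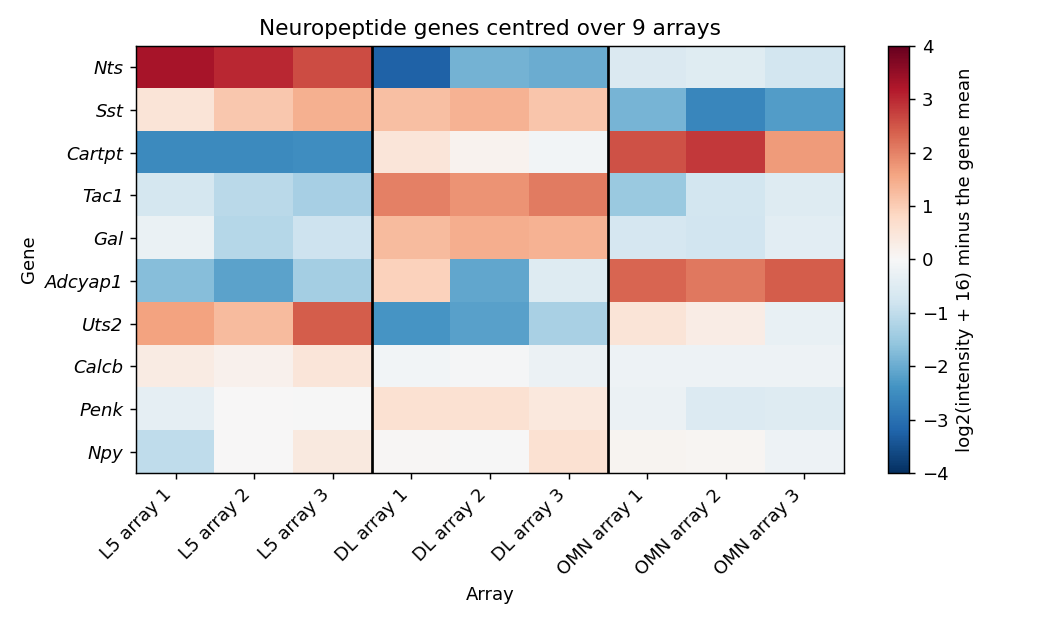
Log2(intensity + 16) of each gene on each array minus the gene's mean over the 9 arrays, from 4 below (blue) to 4 above (red), with black lines between L5, DL and OMN. Cartpt runs from low in L5 to high in OMN, and Adcyap1 differs more among the DL arrays than within L5 or OMN.

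Calcb, Penk and Npy made no call in any comparison. Calcb encodes the beta form of CGRP, the peptide most often described in motor neurons. It was at 6185, 5534 and 6949 in L5, 4527, 4704 and 4172 in DL and 4301, 4276 and 4281 in OMN. The L5 arrays lay above all others, with differences of 0.53 ± 0.19 from OMN (adjusted p = 0.227, 95% interval 0.09 to 0.97) and 0.47 ± 0.19 from DL (adjusted p = 0.229, 95% interval 0.04 to 0.91). Both passed with a trended and robust variance (adjusted p = 0.0149 and 0.0243). DL minus OMN was 0.06 ± 0.19 (adjusted p = 0.931, 95% interval -0.38 to 0.49). Calca, its paralog, was listed but had no probe set assigned to it alone, so it was not measured. Any signal from Calca on the Calcb probe set cannot be told apart.

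Penk encodes proenkephalin, the precursor of the opioid enkephalins. It was at 896.4, 1168 and 1153 in L5, 1772, 1783 and 1550 in DL and 974.2, 794.6 and 807.3 in OMN. The DL arrays lay above all others, and L5 and OMN overlapped. DL minus OMN was 0.98 ± 0.21 (adjusted p = 0.0589, 95% interval 0.49 to 1.47) and L5 minus DL was -0.66 ± 0.21 (adjusted p = 0.151, 95% interval -1.15 to -0.18). DL against OMN passed without the replicate block (adjusted p = 0.0188), with arrays centred on their medians (1.19, adjusted p = 0.0256) and in 4 other settings, and L5 against DL passed with a trended and robust variance (adjusted p = 0.049). Npy, the precursor of neuropeptide Y, was dim in every pool, at 19.0, 56.4 and 77.2 in L5, 58.2, 54.3 and 92.7 in DL and 60.9, 58.7 and 46.5 in OMN. Its arrays overlapped in all 3 comparisons. The 95% intervals were -0.98 to 0.58 for L5 minus OMN, -1.20 to 0.36 for L5 minus DL and -0.56 to 1.00 for DL minus OMN.

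The members differed in how closely the 3 arrays of a pool lay together. The coefficient of variation of the intensity was 3.85% for Cartpt in L5 and 36.9% in OMN, and 0.316% for Calcb in OMN, the smallest of the 30 values. It was 101% for Adcyap1 and 104% for Uts2 in DL, the largest of the 30. In log2 the SD of Adcyap1 was 1.49 over the DL arrays, 0.39 in L5 and 0.17 in OMN. Over 7123 genes with a mean above 200 the median SD was 0.20 in L5, 0.29 in DL and 0.17 in OMN. Since limma estimated a common spread per gene, the errors of differences with DL can be too small.

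Genes with the most similar course over the 9 arrays were sought for 6 members among 8881 genes with a mean intensity over 100, by the root mean square difference of centred log2 values. Nearest to Nts were Egln3, an oxygen-sensing prolyl hydroxylase (0.96), Hsd17b2, a steroid dehydrogenase (1.00), and Uts2 (1.02), against an SD of 2.39 for Nts itself. Nearest to Sst were the Hox gene Hoxa5 (0.34), Pnoc, the precursor of nociceptin (0.44), and the phosphodiesterase Pde1c (0.50). Nearest to Cartpt were the retinoid receptor Rxrg (0.75), the metalloprotease Tll1 (0.83) and the collagen Col5a2 (0.88). Nearest to Tac1 were Mpped2 (0.39), Lix1 (0.43) and the potassium channel modifier Kcnv1 (0.47). Mpped2 was at 230.0 ± 45.8 in L5, 2872 ± 538 in DL and 316.1 ± 41.3 in OMN. Nearest to Gal were Mospd2 (0.26), Prom1 (0.28) and Cadps2 (0.30), which acts in the release of dense core vesicles. Nearest to Uts2 were the signalling protein Wnt5a (0.62), Pcp4l1 (0.66) and the phospholipase Plch1 (0.67).

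In 4 lists of other peptide genes (precursors, processing enzymes, vesicle proteins and receptors) 17 calls were made. Of these 4 held without any single array, those of Pnoc and Cadps2, while 13 were lost without at least 1 array. Without DL arrays 1 and 3 together Cadps2 was at adjusted p = 0.0898 for L5 against DL and 0.0731 for DL against OMN. Of 41 other precursor genes listed 30 were measured, and 5 of these, Hcrt, Ucn3, Gast, Cort and Gcg, did not exceed the noise level on any array. In L5 against OMN 1 was higher and 0 were lower, in L5 against DL 1 was higher and 0 were lower, and in DL against OMN 1 was higher and 1 lower. The shares of all genes called were 2.17%, 2.55% and 3.02%. The medians of the list were -0.10, -0.03 and -0.14 in these comparisons, against 0.01, 0.06 and -0.04 over all genes. Pnoc was at 654.8, 666.5 and 569.9 in L5, 639.5, 712.9 and 800.4 in DL and 66.9, 84.3 and 81.9 in OMN, so that both spinal pools were higher than OMN (2.79 ± 0.19 for L5, adjusted p = 0.000891, and 2.97 ± 0.19 for DL, adjusted p = 0.000661). Adm, the precursor of the vasodilator adrenomedullin, was at 3904 ± 302 in L5, 1401 ± 409 in DL and 3224 ± 269 in OMN, higher in L5 than in DL (1.50 ± 0.25, adjusted p = 0.0302) and lower in DL than in OMN (-1.23 ± 0.25, adjusted p = 0.0491). Both Adm calls were lost on leaving out any array but DL array 1 (adjusted p = 0.0552 to 0.14 and 0.084 to 0.2). The opioid precursor Pdyn was at 172.9 ± 97.2 in DL and 36.5 ± 4.84 in OMN (1.69 ± 0.37, adjusted p = 0.0663), and the stress peptide Crh at 238.9 ± 89.4 in DL and 62.1 ± 22.4 in OMN (1.68 ± 0.40, adjusted p = 0.0817).

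The enzymes that cut and finish peptides were measured for 14 of 15 listed genes. In L5 against OMN and in L5 against DL 0 were higher and 1 was lower, and in DL against OMN 0 were called by limma (3 at an unadjusted p under 0.05). Over all genes 2.17%, 2.55% and 3.02% were called. Pcsk1, a convertase of the regulated secretory pathway, was at 39.7, 49.3 and 45.1 in L5, 190.7, 157.3 and 311.5 in DL and 241.8, 117.3 and 115.2 in OMN. It was lower in L5 than in DL (-1.91 ± 0.34, adjusted p = 0.0362), a call lost on leaving out any array but OMN arrays 1 and 3 (adjusted p = 0.0731 to 0.152). L5 minus OMN was -1.45 ± 0.34 (adjusted p = 0.0903), with the L5 arrays below all others. Qpct, which forms the pyroglutamate end of peptides such as neurotensin, was lower in L5 than in OMN, at 147.1 ± 39.2 against 358.8 ± 52.3 (-1.22 ± 0.19, adjusted p = 0.0262), and this call was lost without any L5 or OMN array (adjusted p = 0.0919 to 0.138). Cpe, the carboxypeptidase that trims precursor fragments, was at 4895 ± 383 in L5, 5587 ± 410 in DL and 5590 ± 183 in OMN. The medians of the list were -0.20, -0.22 and 0.08 in L5 against OMN, L5 against DL and DL against OMN.

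All 15 granins and dense core vesicle genes listed were measured. Their medians were 0.16, 0.01 and -0.04 in the same 3 comparisons. In L5 against OMN 0 were called by limma (2 at an unadjusted p under 0.05), in L5 against DL 1 was lower, and in DL against OMN 2 were higher. Over all genes 2.17%, 2.55% and 3.02% were called. Cadps2, a priming factor of dense core vesicles, was at 462.0, 349.7 and 330.8 in L5, 1636, 1332 and 1214 in DL and 488.9, 405.5 and 342.0 in OMN. It was lower in L5 than in DL (-1.83 ± 0.17, adjusted p = 0.00526) and higher in DL than in OMN (1.72 ± 0.17, adjusted p = 0.00356). Rab3d, a small GTPase of secretory vesicles, was higher in DL than in OMN, at 684.9 ± 236 against 174.3 ± 17.5 (adjusted p = 0.0121), a call lost without DL array 1, OMN array 1 or OMN array 2 (adjusted p = 0.0605 to 0.0796). The granins Chga, Chgb and Scg2 were not called in any comparison, Chgb at 6768 ± 649 in L5, 5050 ± 568 in DL and 5663 ± 165 in OMN.

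**Figure D4:**
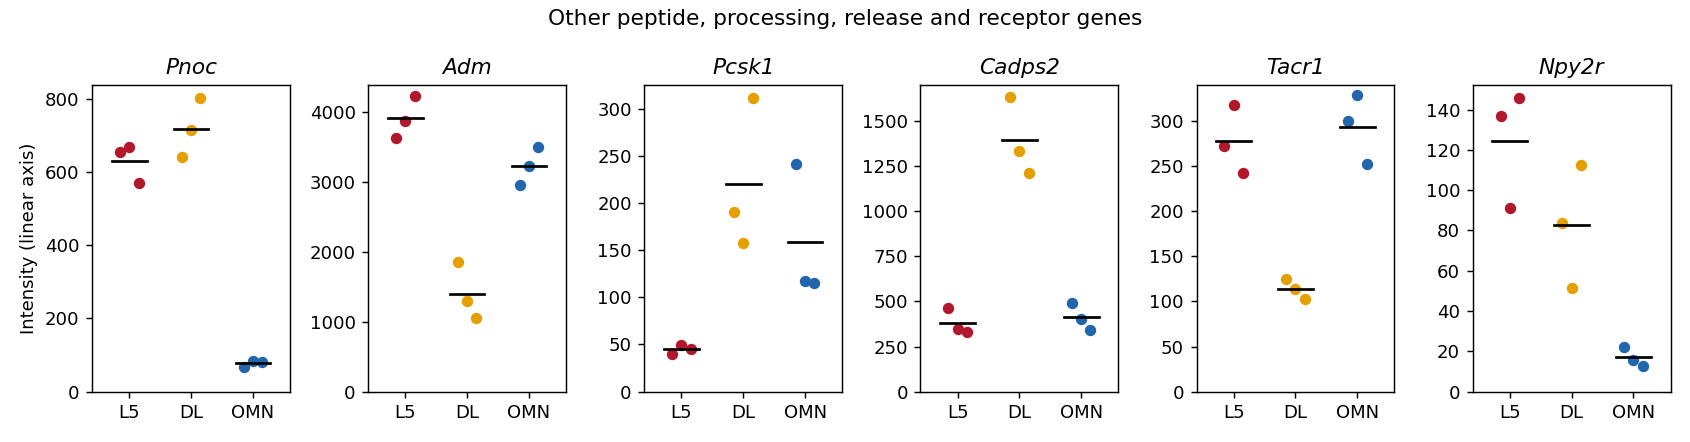
Intensity of 6 genes of peptide synthesis, release and reception on the 9 arrays (linear axes from 0), with 1 point per array and a black line at the mean of each pool. Cadps2 stands out in DL, Pcsk1 is lowest in L5, Tacr1 and Adm are lowest in DL, and Pnoc and Npy2r are lowest in OMN.

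Of 29 receptor genes for the 10 peptides 28 were measured, and Tacr2, Galr2 and Npy4r did not exceed noise on any array. In L5 against OMN 2 were higher and 0 lower, in L5 against DL 2 were higher and 1 lower, and in DL against OMN 2 were higher and 1 lower. The shares of all genes called were 2.17%, 2.55% and 3.02%. Their medians were -0.10, 0.02 and -0.05. Tacr1, the substance P receptor, was at 272.8, 317.8 and 242.9 in L5, 124.6, 114.1 and 102.3 in DL and between 252.1 and 328.8 in OMN. It was thus higher in L5 than in DL (1.18 ± 0.18, adjusted p = 0.0228) and lower in DL than in OMN (-1.25 ± 0.18, adjusted p = 0.0137), where the ligand gene Tac1 was higher in DL than in both others. Leaving out any array ended the first call (adjusted p = 0.0524 to 0.121), and leaving out DL array 1 or 2 or any OMN array ended the other (adjusted p = 0.0503 to 0.0838). Npy2r, a receptor for neuropeptide Y, was higher in both spinal pools than in OMN, at 124.5 ± 29.4 in L5, 82.5 ± 30.5 in DL and 17.0 ± 4.94 in OMN (adjusted p = 0.00898 and 0.0208). The first Npy2r call was lost without any L5 array or OMN array 1 (adjusted p = 0.0583 to 0.0731), and the other on leaving out any array but L5 array 2 and DL array 2 (adjusted p = 0.0506 to 0.0908). Tacr3 was higher in L5 than in OMN (adjusted p = 0.0284), Vipr2 higher in L5 than in DL (adjusted p = 0.0467) and Sstr4 lower in L5 than in DL (adjusted p = 0.0389), and these calls were lost without at least 6 of the 9 arrays in turn. That of Vipr2 was also lost without the replicate block (adjusted p = 0.0513). The neurotensin receptor Ntsr2 was higher in DL than in OMN, at 208.5 ± 75.8 against 88.2 ± 34.6 (adjusted p = 0.0358), a call lost on leaving out any array (adjusted p = 0.0507 to 0.153) and without the replicate block (adjusted p = 0.176). Ntsr1 was at 24.8 ± 23.3 in L5, 36.3 ± 32.4 in DL and 76.4 ± 33.8 in OMN, with no call. Adcyap1r1 was at 848.7 ± 202 in L5, 1407 ± 595 in DL and 1411 ± 95.1 in OMN, and Uts2r was near noise at 17.6 ± 14.2 in L5, 18.5 ± 19.8 in DL and 21.5 ± 23.8 in OMN, neither with a call.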

How the data were processed

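The authors deposited linear intensities of 45101 probe sets on 9 arrays, each array scaled so that its mean, trimmed by 2% at either end, was 250.0. No header or label names the scaling software. Per the labels' protocols, the sections measured 12 µm, and 1.5 ng of RNA or more entered the amplification. Control probe sets (64) were left out. Each gene was read from its brightest probe set on average, since 9010 genes had several. Symbols came from the platform annotation: 34945 probe sets had 1 gene, 932 several and 9160 none, and of the first, 34741 gene IDs were found in the RefSeq table, with 0 symbols changed. The number of arrays limits the precision.

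Log2(intensity + 16) was fitted over all 9 arrays with limma 3.58.1 in R 4.3.3 on pool, with the replicate number in the titles as a block, and Benjamini-Hochberg adjustment ran over all genes, or over all probe sets where so stated. Per the labels' protocols each animal gave all 3 pools, but no label says that equal numbers mean 1 animal. Deviations from the pool means correlated at -0.07 to 0.06 in the 9 array pairs of equal number and at -0.07 to 0.05 in the 18 others, so the values do not show the pairing. The noise level was chosen after the values had been seen. The members and the gene lists were chosen with earlier results of these data known. The lists held 187 symbols, of which 167 were measured. Genes named are all members, up to 4 of a list by smallest p, and the 3 most like each of 6 members. Chat, Slc5a7, Cpe, Chgb, Ntsr1, Adcyap1r1, Uts2r and the genes at noise fall outside this rule and were picked after their values were seen. Alternatives changed the pseudocount, scaling, filter, variance model, block, arrays and probe set summary. Tested on simulated arrays of L5 against DL over 18193 genes, the fit recovered 20%, 62%, 82% and 72% of planted log2 differences of 1, 2, 3 and -2, in this order. False calls made up 7.09% of its calls, and 6.82% in simulated DL against OMN, both over the nominal rate. In simulated L5 against OMN 3.17% of calls were false, under that rate.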

Additional observations from a re-analysis of the deposited data

How the results depend on the processing

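Of 15 calls among the members, 5 held in all 20 other settings, 10 were lost in at least 1, and 0 changed direction. The causes were not tested. With a pseudocount of 1 in place of 16, the genes called were 103 in L5 against OMN, 61 in L5 against DL and 200 in DL against OMN, the probe sets 52, 4 and 153, and the members 2, 3 and 3. With a pseudocount of 64, 602 genes and 836 probe sets were called in L5 against OMN, and 814 genes and 1305 probe sets in L5 against DL. A trended and robust variance gave 946, 1153 and 880 genes in the same 3 comparisons, array weights gave 676 in L5 against OMN, and a filter on dim genes 840 in L5 against DL. Without the replicate block, 806 genes were called in L5 against DL, and 856 and 1260 probe sets in L5 against OMN and L5 against DL. Members called without the block were 4, 5 and 8. With only the 2 pools compared in the fit, 46 genes were called in L5 against DL, and 120 genes and 3 members in DL against OMN. With the Gapdh ratio as a covariate, 89 genes and 1 member were called in L5 against DL, and 279 genes in DL against OMN. An alternative chosen after seeing the data left out DL arrays 1 and 3 together. In L5 against DL limma then called 0 genes (3007 at an unadjusted p under 0.05) and 0 members (5 at an unadjusted p under 0.05), and in DL against OMN 128 genes and 1 member, with a single DL array assumed to vary like the others. Leaving out 1 array at a time gave 83 to 375 genes in L5 against OMN, 55 to 259 in L5 against DL and 186 to 370 in DL against OMN. For probe sets the ranges were 82 to 366, 5 to 228 and 192 to 533, and for members 2 to 4, 2 to 5 and 2 to 5. Centring on the array median moved the median of all genes to -0.10 in L5 against DL and 0.18 in DL against OMN. Higher and lower calls then numbered 169 and 406 in L5 against DL, where 232 and 232 stood before, and 384 and 195 in DL against OMN, where 249 and 301 stood before.

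Differences that turned their sign were all uncalled ones. Tac1 in L5 minus OMN was 0.1655 with the mean of all probe sets. Without DL arrays 1 and 3, Adcyap1 in L5 minus DL was 0.06059 and Npy in DL minus OMN was -0.1657. Over single arrays left out, the log2 differences ran from -0.02152 to 0.147 for Calcb in DL minus OMN, -0.4094 to 0.0646 for Gal in L5 minus OMN, -0.1194 to 0.5211 for Npy in DL minus OMN, -0.5406 to 0.1978 for Npy in L5 minus OMN, -0.4659 to 0.1193 for Sst in L5 minus DL and -0.5226 to 0.1448 for Tac1 in L5 minus OMN.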

Other observations

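The remaining marker lists gave these values, where 2.17%, 2.55% and 3.02% of all genes were called in L5 against OMN, L5 against DL and DL against OMN. Of 3 visceral motor neuron markers, Fbn2, a fibrillin, was higher in L5 than in DL and lower in DL than in OMN, at 55.4, 39.5 and 41.6 in L5, 3.7, 2.3 and 5.2 in DL and 92.5, 48.2 and 32.2 in OMN. The 3 DL arrays were under the noise level. Zeb2 ran the other way, at 270.0 ± 136 in L5, 485.5 ± 24.2 in DL and 343.0 ± 36.6 in OMN (L5 minus DL -0.94, adjusted p = 0.188). Nos1 was at 49.3 ± 20.5, 36.1 ± 26.9 and 66.0 ± 36.5 in L5, DL and OMN. Neither Zeb2 nor Nos1 was called by limma in any comparison. Summed, the 3 markers read 226.8 to 483 in L5, 521.9 to 527.3 in DL and 391.4 to 539.4 in OMN, mostly from Zeb2. Of 10 astrocyte markers, Gfap, the intermediate filament of astrocytes, was the 1 called in each comparison, at 325.4 ± 82.4 in L5, 1550 ± 683 in DL and 18.0 ± 5.34 in OMN. The sum of the list was 20285 to 21553 in L5, 17427 to 19801 in DL and 16661 to 17263 in OMN. Of 9 microglia markers limma called 0 in L5 against OMN, L5 against DL and DL against OMN (1, 3 and 4 at an unadjusted p under 0.05), and Itgam was at noise on all arrays. Of 2 measured serotonin neuron markers limma called 0 in the 3 comparisons (0 also at an unadjusted p under 0.05), with sums of 24.4 to 40.3 in L5, 13.3 to 52.5 in DL and 17.5 to 29.9 in OMN.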
